A study of Homo sapiens with 6 samples.

Results

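The genes described here are 36 genes of sugar breakdown, chosen by gene symbol: glucose and lactate transporters, the enzymes of glycolysis, the PFKFB and PDK regulators, a subunit of pyruvate dehydrogenase and enzymes of the pentose phosphate pathway. All 36 were matched by Ensembl identifier among the 79302 genes of the table, and all 36 passed the filter on low counts that left 16755 genes for testing. RNA-seq was performed on HCT116 cells, a human colorectal carcinoma line, carrying an shRNA against GDPD5 (shGDPD5, 3 libraries) or a control shRNA (shCtrl, 3 libraries). Both groups were radioresistant derivatives of the line, sampled 6 h after 4 Gy of irradiation, so that the control cells were irradiated as well and no library here represents parental or unirradiated cells. Which shRNA against GDPD5 was used, and whether the replicates are independent cultures, is not given in the labels or the study's methods, so that p-values measure only the spread between these libraries, which may be technical.

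Glycolysis converts glucose to pyruvate in the cytosol. Hexokinase traps glucose as glucose 6-phosphate, phosphofructokinase commits it to breakdown, aldolase splits the sugar into triose phosphates, and the lower steps from GAPDH to pyruvate kinase yield ATP. Pyruvate is then either reduced to lactate, which leaves the cell through monocarboxylate transporters, or oxidised in mitochondria by pyruvate dehydrogenase, which PDK kinases switch off by phosphorylation. The pentose phosphate pathway branches off at glucose 6-phosphate and gives NADPH and ribose 5-phosphate. Many of these genes have several isoforms encoded by separate loci, and a number of them are known targets of the transcription factor HIF-1, the main activator of glycolytic genes in low oxygen.

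GDPD5, the targeted gene, had 5.44, 5.55 and 5.19 CPM (counts scaled to the normalised library size) in the shGDPD5 libraries, against 8.33, 11.6 and 9.75 CPM in the shCtrl libraries. Its log2 fold change was -0.88 (SE 0.13, edgeR quasi-likelihood test, adjusted p = 0.000116), and the groups did not overlap. Total counts ranged between 16715447 and 18510670 per library. Of the shCtrl libraries, replicate 1 stood apart: it was the lowest of its group in 23 of the 36 genes, with a median log2 difference of -0.15 to the mean of the other shCtrl libraries, and calls that changed without it are named where they occur. The share of counts in the 37 mitochondrially encoded genes was 12.2% to 12.9% in shGDPD5 libraries and 10.9% to 11.4% in shCtrl libraries. Summed CPM of 12 colorectal epithelial markers ranged between 2799 and 2910 in shGDPD5 libraries and between 3583 and 4094 in shCtrl libraries, with CDX1 at 0 in all 6 libraries. Markers of other cell types were low in both groups: 10 leukocyte markers summed to 3.68 to 3.97 CPM in shGDPD5 libraries and 7.63 to 12 CPM in shCtrl libraries (CD3E and MS4A1 at 0), 9 fibroblast markers to 20.8 to 24.4 CPM in shGDPD5 libraries and 19.2 to 21.9 CPM in shCtrl libraries (COL1A2, DCN and LUM at 0), and 7 endothelial markers to 0.62 to 0.994 CPM in shGDPD5 libraries and 0.932 to 1.47 CPM in shCtrl libraries (CDH5 at 0). The part of these shares and sums in the results was not tested, and fewer cells of a type cannot be told apart from less RNA per cell in bulk libraries.

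Among the 36 genes, those that bring glucose in, phosphorylate it or carry lactate out were lower in shGDPD5 cells. Most called enzymes of the lower glycolytic steps and of the pentose phosphate pathway were modestly higher. At an adjusted p under 0.05, 10 of the 36 genes (27.8%) were higher and 12 (33.3%) were lower, 61.1% being called, and 14 were not called. Across all tested genes 59.7% were called, 29.7% higher and 30.1% lower, so that the number of called genes was close to the background. The median log2 fold change was -0.07 over the 36 genes and 0.01 over all tested genes (-0.12 over the 36 genes without replicate 1 of shCtrl and -0.02 without its replicate 3), and the median absolute log2 fold change was 0.30 over the 36 genes and 0.36 over all tested genes. The changes differed between branches: all 4 transporters fell, 6 of the 18 glycolytic enzymes were higher and 6 lower, 1 of the 7 PFKFB and PDK regulators was higher and 1 lower, PDHA1 was higher, and 2 of the 6 pentose phosphate enzymes were higher and 1 lower. The 6 largest changes, each beyond that of PFKM at 0.67, were decreases on the log2 scale. The methods of the study name more than one threshold on the size of a change. At a raw p under 0.05 and a change of at least 1 on the log2 scale, 0 of the 36 genes were higher, by edgeR or by DESeq2, and 5 were lower (SLC2A3, HK2, HKDC1, ALDOC and PDK1), beside 5.38% higher and 6.6% lower of all tested genes. At the same p with a fold over 1.5 or under 0.5, 3 genes were higher (PFKM, TPI1 and, just past the limit, PGD), beside 13.6% of all tested genes, and 5 were lower, beside 6.6%. In 27 of the 36 genes the groups did not overlap, against 64.9% of all tested genes.

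**Figure D1:**
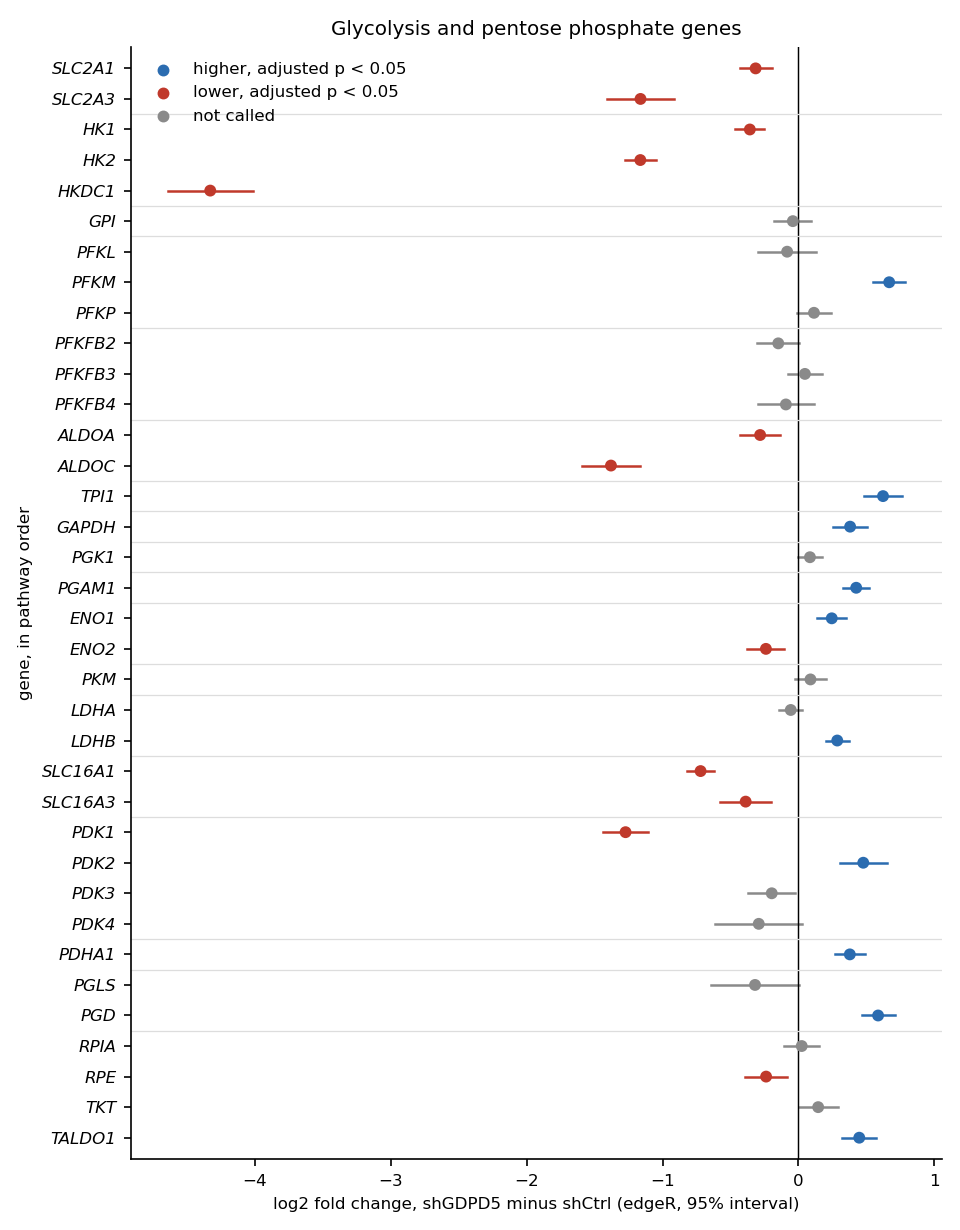
Log2 fold change of each of the 36 genes (x axis, shGDPD5 minus shCtrl, with 95% intervals from the edgeR fit), ordered by step, with genes called higher in blue, called lower in red and not called in grey. HKDC1 lies furthest left at -4.33, and PFKM, at 0.67, is the highest.

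Glucose import was lower in both genes. SLC2A3, the high-affinity glucose transporter GLUT3, had 4.5, 5.44 and 5.24 CPM in shGDPD5 libraries, against 11.9, 10.8 and 11.4 CPM in shCtrl libraries. The groups were well separated, and the level in shGDPD5 cells was 44.7% of that in shCtrl cells (log2 fold change -1.16, SE 0.11, edgeR adjusted p = 2.22e-06). SLC2A1, the ubiquitous transporter GLUT1, fell by less, to 194 ± 6.25 CPM in shGDPD5 libraries against 242 ± 16.3 CPM in shCtrl libraries (SD, n = 3 each, log2 fold change -0.32, edgeR adjusted p = 0.000283). SLC2A1 was by far the more abundant per length in both groups, with 98.0% of the CPM per kilobase of the pair in shGDPD5 cells and 96.5% in shCtrl cells, so that the sum of both genes was 79.1% of its shCtrl value.

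The hexokinase step held the largest single change among the 36 genes, at HKDC1, and all 3 of its genes were lower. HKDC1, a hexokinase domain protein with low glucose-phosphorylating activity, had 0.76, 1.17 and 1.07 CPM in shGDPD5 libraries, against 19, 20.7 and 21.3 CPM in shCtrl libraries. Every shGDPD5 library was far below every shCtrl library, a 20.1-fold lower level (log2 fold change -4.33, SE 0.14, edgeR adjusted p = 1.74e-10), resting on as few as 13 counts in a shGDPD5 library. HK2, the inducible hexokinase bound to the outer mitochondrial membrane, had 48.5, 47.2 and 46.8 CPM in shGDPD5 libraries, against 107, 109.8 and 102 CPM in shCtrl libraries. The libraries within each group were close together, and the level fell to 44.6% of that in shCtrl cells (log2 fold change -1.16, SE 0.05, edgeR adjusted p = 2.07e-09). HK1, the constitutive isoform, fell to 70.2 ± 2.45 CPM in shGDPD5 libraries against 90.0 ± 0.785 CPM in shCtrl libraries (SD, n = 3 each, log2 fold change -0.36, edgeR adjusted p = 4.73e-05). HK1 and HKDC1 are neighbours on chromosome 10 (GRCh38, GENCODE release 29). HKDC1 spans positions 69220303 to 69267559 and HK1 positions 69269984 to 69401884 on the same strand, with 2424 bases between them.

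Measured per kilobase of exon, the mix of hexokinases changed as well as the total. HK1 made up 58.0% ± 0.59 of hexokinase CPM per kilobase in shGDPD5 libraries against 39.1% ± 0.429 in shCtrl libraries (SD, n = 3 each). HK2 made up 40.8% ± 0.572 in shGDPD5 libraries against 47.9% ± 1.03 in shCtrl libraries, and HKDC1 1.23% ± 0.277 in shGDPD5 libraries against 13.1% ± 0.782 in shCtrl libraries. HK2 was the leading isoform in shCtrl cells and HK1 in shGDPD5 cells when lengths were taken from all exons of a gene. With the longest transcript as the length, HK1 led in both groups, at 67.4% in shGDPD5 cells and 48.5% in shCtrl cells. The ratio of HK2 to HK1, in which length cancels for a change, was lower by 0.80 on the log2 scale, and that of HKDC1 to HK1 by 3.97, with no overlap between groups (two-sided exact permutation test, p = 0.1 for each, the smallest that 3 against 3 libraries allow). The summed hexokinase CPM per kilobase was 19.2 ± 0.486 in shGDPD5 libraries and 36.6 ± 0.72 in shCtrl libraries (SD, n = 3 each), or 52.5% of the shCtrl value.

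The DNA upstream of HK2 and HKDC1 is shown because these genes had the largest decreases of the step and differ in the number of HIF core letters. Each stretch holds the 250 bases before a RefSeq start site (GRCh38.p14, 5′ to 3′ on the plus strand), with capitals marking matches, on either strand, to the HIF core letters ACGTG or to their variant form GCGTG. The first of these motifs also lies within the E-box CACGTG, which is its own reverse complement and so is counted on both strands.
HK2, chr2:74834920-74835169: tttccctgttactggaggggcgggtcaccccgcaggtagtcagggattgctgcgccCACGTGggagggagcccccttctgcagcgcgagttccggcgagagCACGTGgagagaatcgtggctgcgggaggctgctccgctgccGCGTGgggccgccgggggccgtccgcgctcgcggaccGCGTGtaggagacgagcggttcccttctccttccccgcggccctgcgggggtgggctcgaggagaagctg
HKDC1, chr10:69220082-69220331: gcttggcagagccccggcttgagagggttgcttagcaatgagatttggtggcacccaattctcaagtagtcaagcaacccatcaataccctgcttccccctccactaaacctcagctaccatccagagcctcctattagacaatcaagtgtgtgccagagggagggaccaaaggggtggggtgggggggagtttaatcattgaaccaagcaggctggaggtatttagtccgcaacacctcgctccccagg
The HK2 stretch, the one with more matches of its 2 RefSeq start sites, held 4 matches to ACGTG, from its E-boxes counted on both strands, and 2 to GCGTG, whereas the HKDC1 stretch held 0 of each. The window of the other HK2 start site, not shown, held 2 matches to ACGTG and 1 to GCGTG. The HK2 stretch lies within the HK2 gene model of GENCODE release 29, which spans positions 74833981 to 74893359, and not upstream of it. Of the 36 genes, 33 had entries in the RefSeq promoter table, with 61 start sites in all. ACGTG occurred in 32.8% of these 61 windows and in 18.5% of all 35116 windows of the table, and the variant form GCGTG in 31.1% of the 61 and 32.2% of all. At least 1 of the motifs occurred in 50.8% of the 61 windows and in 43.2% of all. By call, ACGTG was found in 37.5% of the 24 windows of genes called lower, 26.3% of the 19 of genes called higher and 33.3% of the 18 of genes not called. For the variant form the shares were 25.0% of windows of genes called lower, 26.3% of genes called higher and 44.4% of genes not called. At least 1 motif was found in 12 of the 24 windows of genes called lower, 7 of the 19 of genes called higher and 12 of the 18 of genes not called. These windows belong to 10 genes called lower, 10 called higher and 13 not called. A gene with several start sites is counted once for each, so the shares are of windows and not of genes. A match is a run of letters and not a measured binding site.

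**Figure D2:**
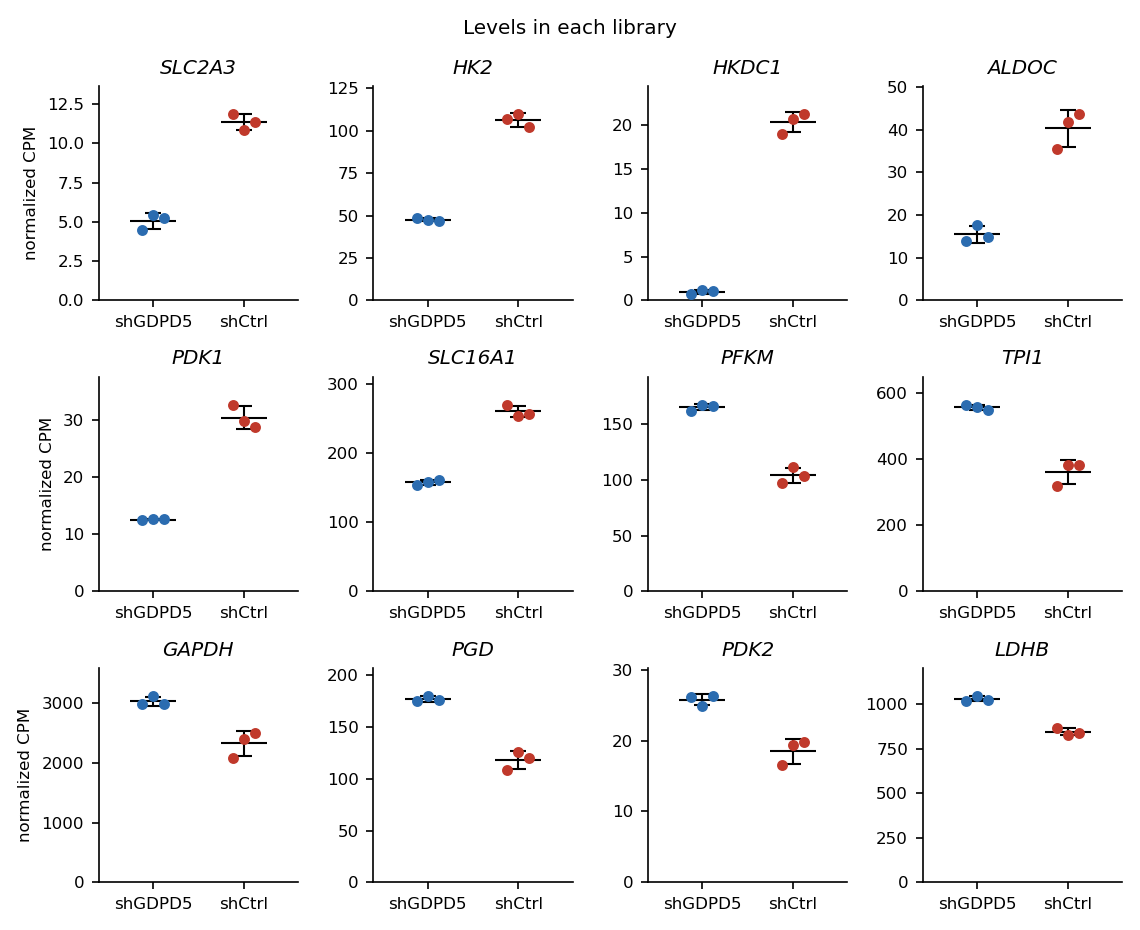
CPM in each library for 12 of the called genes (y axes in CPM from 0, shGDPD5 left in blue, shCtrl right in red, long lines are group means and error bars the SD of 3 libraries). The groups do not overlap in any of the 12 panels, and the shGDPD5 points of HKDC1 lie near 1 CPM beside about 20 CPM in shCtrl.

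At the committing step, PFKM, the muscle-type phosphofructokinase, was higher while the other isoforms were not called. PFKM had 162, 167 and 166 CPM in shGDPD5 libraries, against 97.5, 111 and 104 CPM in shCtrl libraries. The lowest shGDPD5 library exceeded the highest shCtrl library, and the level was 159% of that in shCtrl cells (log2 fold change 0.67, SE 0.05, edgeR adjusted p = 4.16e-07). PFKL, the liver type, and PFKP, the platelet type, had log2 fold changes of -0.08 and 0.11 (edgeR adjusted p = 0.48 and 0.116). Without replicate 1 of shCtrl they were at -0.18 for PFKL and 0.05 for PFKP, also not called. PFKM made up 32.7% ± 1.31 of phosphofructokinase CPM per kilobase in shGDPD5 libraries and 24.5% ± 1.26 in shCtrl libraries (SD, n = 3 each), and PFKP stayed the leading isoform at 56.2% in shGDPD5 cells and 61.7% in shCtrl cells. GPI, which interconverts glucose 6-phosphate and fructose 6-phosphate, was not called (log2 fold change -0.04, edgeR adjusted p = 0.588, and 0.01792 without a normalisation factor). Without replicate 1 of shCtrl it was called lower, at -0.12 with an edgeR adjusted p of 0.00281. The bifunctional enzymes that set fructose 2,6-bisphosphate, the activator of phosphofructokinase, were not called either, with log2 fold changes of -0.15 for PFKFB2, 0.05 for PFKFB3 and -0.09 for PFKFB4 (edgeR adjusted p = 0.089, 0.496 and 0.421). Without replicate 1 of shCtrl the sign of PFKFB3 turned, to -0.005505. PFKFB2 was called lower without replicate 2 of shCtrl (-0.21, edgeR adjusted p = 0.0386) and PFKFB4 without its replicate 1 (-0.19, edgeR adjusted p = 0.0473).

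Aldolase was lower in both genes measured. ALDOC, the brain-type aldolase, had 14, 17.7 and 14.8 CPM in shGDPD5 libraries, against 35.5, 41.9 and 43.7 CPM in shCtrl libraries. The groups were far apart, with a level of 38.4% of that in shCtrl cells (log2 fold change -1.38, SE 0.10, edgeR adjusted p = 1.51e-07). ALDOA, the main aldolase, fell to 583 ± 6.26 CPM in shGDPD5 libraries against 709 ± 80.6 CPM in shCtrl libraries (SD, n = 3 each, log2 fold change -0.28, edgeR adjusted p = 0.0031), and 42.3% of its exon bases are shared with another protein-coding gene model, AC093512.2, so that its counts could be split. ALDOC had 3.43% of the aldolase CPM per kilobase in shGDPD5 cells and 7.07% in shCtrl cells.

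From the triose phosphates down to enolase, by contrast, 4 enzymes were higher. TPI1, which interconverts the products of aldolase, had 565, 559.7 and 548 CPM in shGDPD5 libraries, against 319.9, 384 and 383 CPM in shCtrl libraries. No value overlapped, and the level was 154% of that in shCtrl cells (log2 fold change 0.62, SE 0.06, edgeR adjusted p = 3.28e-06). GAPDH, the first step that yields NADH and a common reference gene for qPCR, had 3030.2 ± 79.4 CPM in shGDPD5 libraries and 2329 ± 215 CPM in shCtrl libraries (SD, n = 3 each, log2 fold change 0.38, edgeR adjusted p = 0.000111), and 14.2% of its exon bases are shared with the antisense gene AC006064.4 (3001 counts over the 6 libraries). PGAM1, the phosphoglycerate mutase, had 370.4 ± 3.85 CPM in shGDPD5 libraries and 276 ± 10.5 CPM in shCtrl libraries (SD, n = 3 each, log2 fold change 0.42, edgeR adjusted p = 3.85e-06). PGK1, which makes the first ATP of the lower pathway, and PKM, the pyruvate kinase, were not called, at log2 fold changes of 0.08 and 0.09 (edgeR adjusted p = 0.0944 and 0.177). Without replicate 1 of shCtrl, PKM was at 0.02 and PGK1 was called higher (0.07, edgeR adjusted p = 0.0411).

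Enolase isoforms moved in opposite directions. ENO1, the ubiquitous isoform, had 1733, 1818 and 1732 CPM in shGDPD5 libraries, against 1376, 1533 and 1549.6 CPM in shCtrl libraries. It was higher with no overlap (log2 fold change 0.24, SE 0.05, edgeR adjusted p = 0.000973). ENO2, the neuronal isoform, had 59.3, 63.4 and 62.9 CPM in shGDPD5 libraries, against 67.8, 72.3 and 79.0 CPM in shCtrl libraries, which was lower with no overlap (log2 fold change -0.24, SE 0.06, edgeR adjusted p = 0.00549). The ratio of ENO2 to ENO1 was lower by 0.48 on the log2 scale (two-sided exact permutation test, p = 0.1, the smallest possible). TPI1 and ENO2 lie 42796 bases apart on chromosome 12 and changed in opposite directions.

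Of the lactate dehydrogenase subunits only LDHB was called, as higher, and both lactate transporters were lower. LDHB, the lactate dehydrogenase subunit of the heart-type enzyme, had 1021, 1048 and 1027 CPM in shGDPD5 libraries, against 868, 831 and 842 CPM in shCtrl libraries. It was higher in every shGDPD5 library (log2 fold change 0.29, SE 0.04, edgeR adjusted p = 4.66e-05), although 33.4% of its exon bases are shared with the gene model AC010197.2, which had 45 counts over the 6 libraries. LDHA, the muscle-type subunit and a well-known HIF-1 target, was not called (log2 fold change -0.06, 95% interval -0.14 to 0.03, edgeR adjusted p = 0.228), and its sign turned, to 0.002658, without a normalisation factor. The ratio of LDHA to LDHB per kilobase was 0.438 ± 0.00124 in shGDPD5 libraries and 0.556 ± 0.00153 in shCtrl libraries (SD, n = 3 each). On the log2 scale this ratio was lower by 0.34, with the smallest standard error of the 18 isoform ratios compared. SLC16A1, the lactate transporter MCT1, had 154, 158 and 161 CPM in shGDPD5 libraries, against 269, 254 and 257 CPM in shCtrl libraries. The groups were far apart, at 60.7% of the shCtrl level (log2 fold change -0.72, SE 0.05, edgeR adjusted p = 4.1e-08). SLC16A3, the lactate exporter MCT4, fell to 126 ± 14.8 CPM in shGDPD5 libraries against 165 ± 15.9 CPM in shCtrl libraries (SD, n = 3 each, log2 fold change -0.39, edgeR adjusted p = 0.00173).

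At the switch between lactate and mitochondrial oxidation, 1 of the 4 PDK kinases was lower, 1 was higher and 2 were not called. PDK1, the pyruvate dehydrogenase kinase induced by HIF-1, had 12.4, 12.7 and 12.6 CPM in shGDPD5 libraries, against 32.7, 29.8 and 28.8 CPM in shCtrl libraries. The level was 41.4% of that in shCtrl cells, with no overlap (log2 fold change -1.27, SE 0.08, edgeR adjusted p = 2.77e-08). PDK2, a widely expressed isoform, moved the other way, with 26.1, 24.9 and 26.3 CPM in shGDPD5 libraries, against 16.5, 19.3 and 19.7 CPM in shCtrl libraries. It was higher with no overlap (log2 fold change 0.48, SE 0.08, edgeR adjusted p = 0.000236), although 38.6% of its exon bases are shared with SAMD14 on the opposite strand, a gene of 67 counts over the 6 libraries. PDK3 had 20.2, 19.3 and 20.7 CPM in shGDPD5 libraries against 25.1, 21.0 and 23.0 CPM in shCtrl libraries, and just missed the threshold (log2 fold change -0.20, SE 0.08, edgeR adjusted p = 0.0504). It was called lower without replicate 2 of shCtrl (-0.26, edgeR adjusted p = 0.0221). PDK4, a kinase induced by fasting, had 3.62, 3.52 and 3.78 CPM in shGDPD5 libraries against 4.6, 4.91 and 3.86 CPM in shCtrl libraries and was not called (log2 fold change -0.29, SE 0.15, edgeR adjusted p = 0.107). PDK1 made up 8.14% of PDK CPM per kilobase in shGDPD5 cells and 18.5% in shCtrl cells, and PDK2 made up 45.2% in shGDPD5 cells and 30.6% in shCtrl cells, while the sum of the 4 kinases in shGDPD5 cells was 94.1% of that in shCtrl cells. These shares and the sum depend on length, with 14883 exon bases for PDK1 and 5481 for PDK2. In CPM without length, PDK1 led in shCtrl libraries, at a mean of 30.4 beside 23.0 for PDK3 and 18.5 for PDK2. PDHA1, the catalytic subunit that these kinases phosphorylate, had 74.3 ± 0.896 CPM in shGDPD5 libraries and 57.2 ± 1.66 CPM in shCtrl libraries (SD, n = 3 each, log2 fold change 0.38, edgeR adjusted p = 3.49e-05), and 21.3% of its exon bases are shared with MAP3K15 on the opposite strand (176 counts over the 6 libraries).

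**Figure D3:**
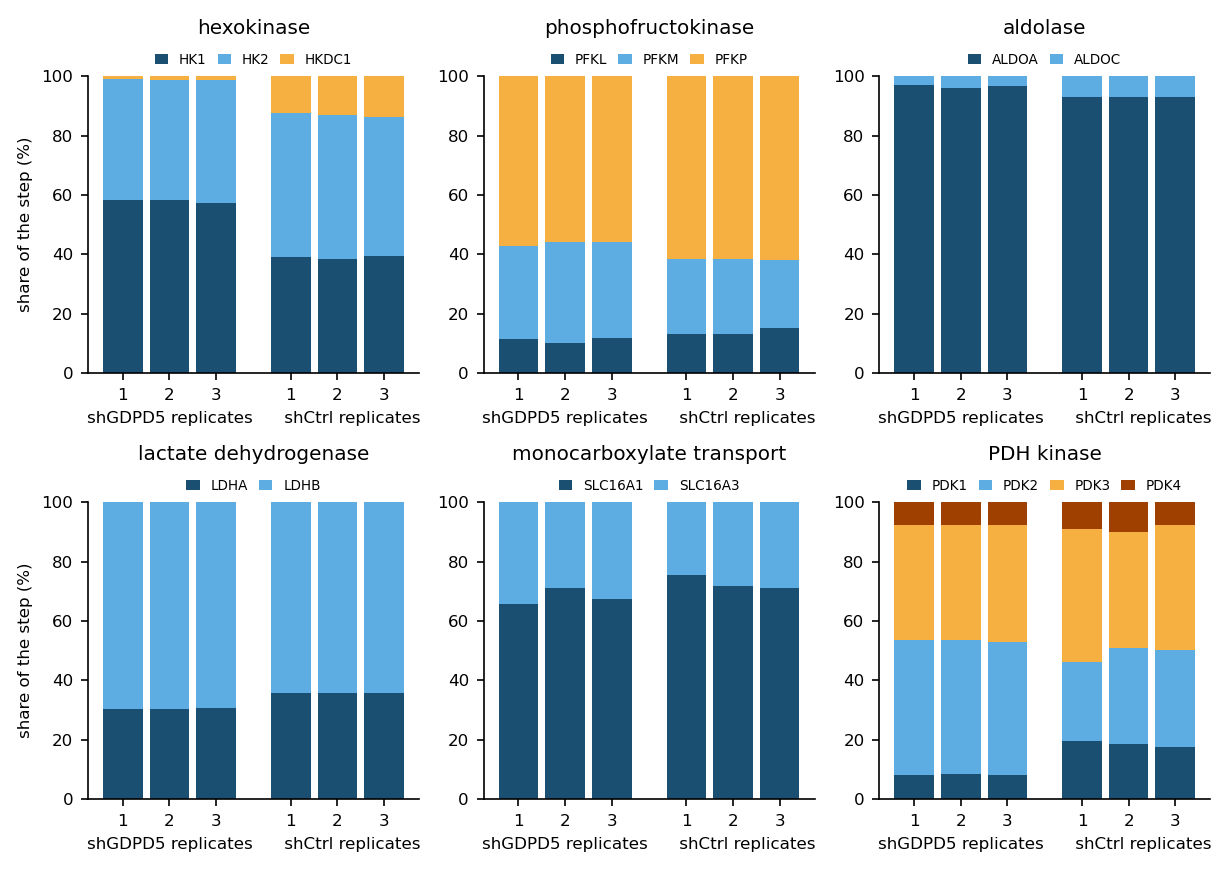
Share of each isoform in the CPM per kilobase of its step (y axis, percent), with replicates 1 to 3 of shGDPD5 on the left and of shCtrl on the right of each panel. HKDC1 is 1.23% of hexokinase in shGDPD5 and 13.1% in shCtrl, and PDK2 is 45.2% of the kinases in shGDPD5 and 30.6% in shCtrl.

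Over the 18 pairs of isoforms compared, 16 ratios did not overlap between groups, and each of these had the smallest p the design allows (two-sided exact permutation test, p = 0.1, Benjamini-Hochberg adjusted over the 18 pairs 0.1125). Single genes did not overlap in 64.9% of all tested genes, and no such share was computed for ratios of other gene pairs. Several pairs also share a gene, so the count is a description only. PFKFB3 to PFKFB2 and PFKFB4 to PFKFB2 overlapped (exact permutation p = 0.2 and 0.9). Summed per kilobase, the steps in shGDPD5 cells ranged between 52.5% of the shCtrl value, at hexokinase, and 154%, at triose phosphate isomerase. Hexokinase, monocarboxylate transport at 65.0%, glucose import at 79.1% and aldolase at 79.1% were the 4 lowest, and PGAM1 at 134% and the oxidative pentose phosphate enzymes at 142% followed triose phosphate isomerase at the upper end.

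In the pentose phosphate pathway, the enzyme making ribulose 5-phosphate was higher. PGD, 6-phosphogluconate dehydrogenase and a source of NADPH, had 175, 179.9 and 176 CPM in shGDPD5 libraries, against 108, 126 and 120.1 CPM in shCtrl libraries. The groups did not overlap, and the level was 150.1% of that in shCtrl cells (log2 fold change 0.59, SE 0.06, edgeR adjusted p = 1.95e-06). PGLS, the lactonase before it, was not called (log2 fold change -0.32, SE 0.15, edgeR adjusted p = 0.0845), and was called lower without replicate 1 of shCtrl (log2 fold change -0.45, edgeR adjusted p = 0.0186). In the reversible branch, TALDO1, transaldolase, had 111, 115 and 114 CPM in shGDPD5 libraries, against 76.2, 86.1 and 87.1 CPM in shCtrl libraries. It was higher with no overlap (log2 fold change 0.45, SE 0.06, edgeR adjusted p = 2.49e-05). RPE, the epimerase that makes xylulose 5-phosphate, had 71.5, 63.0 and 65.4 CPM in shGDPD5 libraries, against 86.5, 73.7 and 75.7 CPM in shCtrl libraries, and was lower (log2 fold change -0.24, SE 0.07, edgeR adjusted p = 0.0107). The groups of RPE came close but did not overlap, and 23.8% of its exon bases are shared with KANSL1L on the opposite strand. KANSL1L had 1387 counts over the 6 libraries, beside 7668 for RPE, and a part of this overlap in the change was not tested. TKT, transketolase, had 406, 402 and 409.6 CPM in shGDPD5 libraries, against 321, 385 and 395 CPM in shCtrl libraries and was not called (log2 fold change 0.14, SE 0.07, edgeR adjusted p = 0.0764), and the value depended on the shCtrl libraries: 0.05 without replicate 1 of shCtrl (edgeR adjusted p = 0.0935) and 0.20, called higher, without its replicate 3 (edgeR adjusted p = 0.0277). RPIA, the isomerase that makes ribose 5-phosphate, had 43.1, 40.8 and 41.4 CPM in shGDPD5 libraries, against 39.9, 43.1 and 40.3 CPM in shCtrl libraries, overlapped between groups and was not called (log2 fold change 0.02, SE 0.06, edgeR adjusted p = 0.746). Its sign turned without replicate 1 of shGDPD5 (-0.0006254) and without replicate 1 of shCtrl (-0.001679).

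Related genes outside the 36 were counted from lists of neighbouring functions. Of 9 tested other glucose and monocarboxylate transport genes, 2 were higher and 1 lower. The lower gene was EMB, the ancillary protein of MCT carriers (log2 fold change -0.44, edgeR adjusted p = 0.000181), and the higher genes were SLC16A7, the carrier MCT2 (0.29, edgeR adjusted p = 0.00882), and BSG, the main ancillary protein of MCT1 and MCT4, named after its values were seen (0.17, edgeR adjusted p = 0.0392). BSG had 409.5 ± 18.8 CPM in shGDPD5 libraries and 364 ± 35.6 CPM in shCtrl libraries (SD, n = 3 each), with groups that overlapped. The list had 1 in place of 2 higher genes when replicate 1 or 3 of shGDPD5 or replicate 1 or 2 of shCtrl was left out. Of 15 tested other glycolytic and side-branch enzymes, 7 were higher and 6 lower. The lower genes included PCK2, the mitochondrial PEP carboxykinase (log2 fold change -1.25, edgeR adjusted p = 2.73e-08), and PGM1, which links glucose phosphate to glycogen (-0.81, edgeR adjusted p = 2e-07). Among the higher genes was ADPGK, which also phosphorylates glucose, named after its values were seen (0.32, edgeR adjusted p = 0.000398). Pyruvate import and pyruvate dehydrogenase complex genes were higher in 6 (3 without replicate 2 of shCtrl) and lower in 2 of 10 tested, with DLAT, the E2 subunit, at a log2 fold change of 0.54 (edgeR adjusted p = 1.9e-06) and MPC1, a subunit of the mitochondrial pyruvate carrier, at -0.46 (edgeR adjusted p = 0.000626). Of 7 tested other pentose phosphate genes, 4 were higher and 2 lower, with PRPS1, which makes phosphoribosyl pyrophosphate, at 0.73 (edgeR adjusted p = 1.39e-07) and H6PD, which runs the oxidative steps in the endoplasmic reticulum, at -1.28 (edgeR adjusted p = 9.53e-09). These shares are to be read beside the 29.7% higher and 30.1% lower of all tested genes.

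Genes known as HIF targets outside glycolysis were lower almost throughout. Of the 21 listed, all tested, 18 were lower and 1 higher (30.1% and 29.7% of all tested genes), with a median log2 fold change of -1.23 beside 0.01 over all tested genes. The list was written with earlier results of these data known, so these counts describe it and are not a test. DDIT4, an inhibitor of mTORC1 signalling, had 93.7, 87.6 and 84.8 CPM in shGDPD5 libraries, against 525, 609 and 608 CPM in shCtrl libraries (log2 fold change -2.71, edgeR adjusted p = 1.73e-11). NDRG1, a stress-response gene, had 75.6, 80.5 and 83.0 CPM in shGDPD5 libraries, against 463, 488 and 489 CPM in shCtrl libraries (log2 fold change -2.59, edgeR adjusted p = 4.9e-12). The groups were far apart in both, and P4HA1, a collagen prolyl hydroxylase subunit, fell likewise, by 2.29 on the log2 scale. The gene that was higher was JMJD6, named after its values were seen (log2 fold change 1.16, edgeR adjusted p = 2e-08). Of the 20 genes among the 36 listed as HIF-1 targets, 9 were lower, 4 higher and 7 not called, with a median of -0.09. Of the other 16, 3 were lower, 6 higher and 7 not called, with a median of 0.07. All 6 pentose phosphate enzymes are among these 16 and none among the HIF-1 targets, so the sets also differ in branch. Among the HIF-1 targets of the pathway, SLC2A3, HK2, ALDOC and PDK1 fell by more than 1 on the log2 scale, whereas TPI1, GAPDH, PGAM1 and ENO1 were higher and LDHA, PGK1 and PKM were among those not called.

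**Figure D4:**
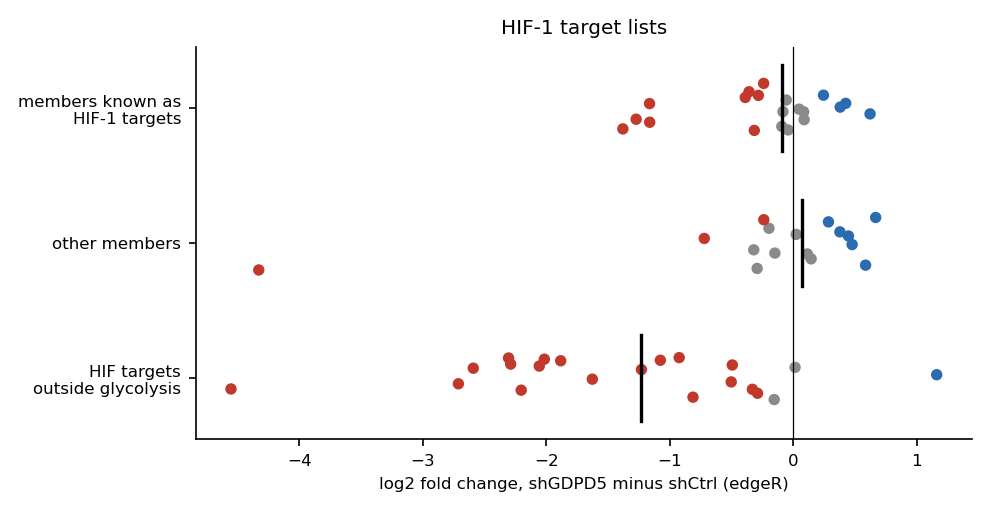
Log2 fold changes (x axis, shGDPD5 minus shCtrl, 1 point a gene) of the 20 genes of the pathway listed as HIF-1 targets (top), the other 16 (middle) and HIF targets outside glycolysis (bottom), with black lines at the medians of -0.09, 0.07 and -1.23. Blue points are called higher, red points called lower and grey points not called, and the list outside glycolysis lies furthest to the left. The lists were written with earlier results of these data known.

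Of 17 tested regulators of glycolytic genes, 9 were lower and 4 higher, beside 30.1% lower and 29.7% higher of all tested genes. ARRDC4, an arrestin that promotes removal of glucose transporters from the membrane and a target of the glucose sensor MondoA, had 11.5, 12.1 and 12.6 CPM in shGDPD5 libraries, against 141, 122 and 129 CPM in shCtrl libraries (log2 fold change -3.43, edgeR adjusted p = 6.78e-12). EGLN3, an oxygen-sensing prolyl hydroxylase and itself a HIF target, fell by 1.85 (edgeR adjusted p = 2.21e-07), EPAS1, which encodes HIF-2 alpha, by 0.94 (edgeR adjusted p = 1.23e-08) and MLXIPL, a glucose-responsive transcription factor, by 0.50 on the log2 scale (edgeR adjusted p = 7.98e-05). HIF1A, named outside the rule as the gene of the HIF-1 alpha subunit, had 198, 188 and 200.3 CPM in shGDPD5 libraries, against 209.5, 188 and 191 CPM in shCtrl libraries. Its groups overlapped and it was not called (log2 fold change -0.00449, SE 0.05, edgeR adjusted p = 0.948), and the regulation of the HIF-1 alpha protein, which is mainly by degradation, was not measured here.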

How the data were processed

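A single table of expected counts, 1 row a gene, was deposited by the authors for 6 RNA-seq libraries of HCT116 cells, 3 shGDPD5 and 3 shCtrl, grouped by the sample labels, covering 79302 genes, 370 of them under processing names without an Ensembl identifier. How its reads were aligned and counted, on which build and annotation and whether by strand, is not given in the sources used here, so reads of overlapping or antisense genes may not be separable, and a count lost to a near-identical copy cannot be seen. Pseudogene rows of 17 of the 36 genes (119 rows) each summed to less than 1% of the gene's counts.

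Counts were rounded to whole numbers (by at most 0.5) and fitted in R 4.3.3 by edgeR 4.0.16 (quasi-likelihood test), with the default filter on low counts (a minimum count of 10), TMM normalisation and Benjamini-Hochberg adjustment over 16755 genes. A gene was called at an adjusted p under 0.05. The common biological coefficient of variation was 0.0555. The test was checked on simulated data. Totals of 16715447 to 18510670 counts per library limit the precision mainly for genes of few counts, and 33 of the 36 genes had more than 100 counts in every library. CPM per kilobase used the union of exons from GENCODE release 29 (GRCh38). Promoter windows came from RefSeq (GRCh38.p14), and isoform log2 ratios (a prior count of 0.5) were compared with an exact permutation test over libraries.

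The 36 genes and the gene lists were chosen with earlier results of these data known, and the lists were written from general knowledge. All 36 genes are named. Full values are given for called genes whose groups do not overlap and that changed by 0.5 or more on the log2 scale, and for every gene of a step whose isoforms moved in opposite directions. From each list, up to 4 genes of largest absolute change with a mean CPM of at least 5 could be named. Alternatives were RLE and upper quartile factors, no factor, DESeq2 1.42.0, limma-voom and limma 3.58.1 on log2(CPM + 1), no filter, 10 counts in every library, a replicate block, pseudogene rows added and each library left out.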

Additional observations from a re-analysis of the deposited data

How the results depend on the processing

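The 22 called genes kept their direction and their call in all 352 of the 352 combinations of called gene and alternative (16 alternatives). Of the 14 genes not called, 9 were called under some alternative and 5 changed sign. Without a normalisation factor the 36 genes had a median of -0.01049 on the log2 scale (-0.07 with TMM), GPI was at 0.01792 and LDHA at 0.002658. Of the calls over all tested genes, 56% were in the higher direction without a factor, against 49.7% with TMM. The sign turned for RPIA without replicate 1 of shGDPD5 (-0.0006254) or of shCtrl, for PFKFB3 without replicate 1 of shCtrl, and for GPI and PFKL without replicate 3 of shCtrl. Over the fits that leave out 1 library, GPI ranged between -0.1239 and 0.007111, PFKL between -0.1834 and 0.02758, PFKFB3 between -0.005505 and 0.06711, and RPIA between -0.001679 and 0.05407, and the cause was not tested. With the longest transcript as length, the log2 ratio of the step sums was -0.83 for hexokinase, 0.0003025 for PDH kinase and 0.21 for the non-oxidative pentose phosphate enzymes, against -0.93, -0.09 and 0.14, because other lengths weight the isoforms differently. At a fold over 1.5 in place of a log2 change of 1, an alternative chosen after seeing the data, 3 in place of 0 genes were higher at a raw p under 0.05. Over the 6 fits that leave out a library, 10 to 11 of the 36 genes were higher and 12 to 15 lower.

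The replicate numbers did not pair the libraries: same-numbered libraries of the groups had correlations of -0.07, -0.0517 and -0.041 in their deviations from the group means. A fit with the replicate block called 4792 genes higher and 4853 lower, against 4971 and 5035 without it, and called 10 of the 36 genes higher and 12 lower, as without the block.

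The exact permutation test over 3 against 3 libraries cannot give a p under 0.1 for an isoform ratio, whatever its size. HKDC1 had the lowest count in a single library, 13 in a shGDPD5 library.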

Other observations

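Relative to GAPDH in the same libraries, GDPD5 was lower by 1.25 on the log2 scale, where its own log2 fold change was -0.88, and 29 of the other 35 genes of the pathway were lower. These values bear on RNA measurements of these irradiated cells that take GAPDH as reference, and GAPDH protein was not measured here.

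The 36 genes held between 1.295% and 1.309% of the counts of tested genes in shGDPD5 libraries and between 1.05% and 1.18% in shCtrl libraries, so that the summed share was higher while the transporters and hexokinases were lower. TXNIP, a glucose-responsive gene of the same family as ARRDC4, had at most 1 count in any of the 6 libraries and could not be tested. It is named here after its values were seen, and whether its reads were lost in alignment or counting was not tested.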
